A study of Drosophila melanogaster with 72 samples.

Results

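The genes described here are those whose RNA level changed in whole Drosophila melanogaster brains after activation of the neurons marked by the R21H11 driver, measured against both of the study's controls for that line. Of the 72 libraries of the series, in 24 groups of 3, the 9 R21H11 libraries were used. R21H11 is a GAL4 line: GAL4, a yeast transcription factor, is made in a chosen set of neurons and switches on any transgene behind a UAS sequence. The TrpA1 29C group carried R21H11-GAL4 with UAS-TrpA1 and spent the final 3 h of the night at 29 °C, after being held at 21 °C, before dissection at ZT0 (lights on). The GAL4 control 29C group carried R21H11-GAL4 without UAS-TrpA1 and had the same 3 h at 29 °C. The TrpA1 21C group carried both transgenes and stayed at 21 °C. Every one of these flies thus carried R21H11-GAL4, and the labels describe the neurons as wake-promoting. A library was made from 15 pooled brains, so activation reached a subset of neurons while the RNA came from the whole brain. Neither the sex and age of the flies nor whether the pools came from separate crosses is given in the labels, so p-values measure the spread between these pools.

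TrpA1 is a cation channel that opens in warmth and depolarises the neuron that makes it, so a modest temperature step activates chosen neurons in a living fly. Waking prolonged by this or by other means is known to change brain genes for protein folding, energy metabolism and synaptic function. Molecular chaperones are the folding machinery: the chaperonin CCT, a ring of 8 different subunits, folds actin and tubulin, whereas Hsp70 and Hsp90 work in cycles that are driven by partner proteins called co-chaperones. Warmth on its own induces many chaperones through heat shock factor. The GAL4 control 29C group shares the warm shift with the TrpA1 29C group, and the TrpA1 21C group shares its genotype. A gene was therefore followed only where it lay in the same direction against both.

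Total estimated counts ran from 5884063 to 10324983 per library. The 3 groups differed in depth by less than the spread within the TrpA1 29C group, at 7721630 ± 2320000 in TrpA1 29C, 7769470 ± 690000 in GAL4 control 29C, with 9251720 ± 763000 in TrpA1 21C (mean ± SD, n = 3 each). Expression is given below as CPM, counts per 1e+06 after TMM scaling. TrpA1 had 29.9, 18.8 and 24.8 CPM in TrpA1 29C, against 13.5, 12.6 and 14.2 in GAL4 control 29C, with 23.7, 29.1 and 22.0 in TrpA1 21C. Its RNA was higher in TrpA1 29C than in GAL4 control 29C (log2 change 0.87 ± 0.18, adjusted p = 0.00476) and was not called against TrpA1 21C (log2 change -0.02 ± 0.18, adjusted p = 0.96), as the genotypes on the labels require. In TrpA1 29C w stood at 19.3, 18.6 and 14.4 CPM, whereas GAL4 control 29C had 11.9, 9.10 and 9.84 and TrpA1 21C had 29.0, 32.4 and 30.7. The white gene marks many fly transgenes, and its 3 groups did not overlap. It thus differed between the 2 groups labelled with the same genotype, at 17.4 ± 2.67 CPM in TrpA1 29C and 30.7 ± 1.73 in TrpA1 21C (mean ± SD). The origin of this difference was not tested. TrpA1 29C replicate 2 stood apart from its group: it lay at -58.9 on the leading principal component, which held 50.7% of the variance, with replicates 1 and 3 at -19.8 and -20.2. That library also had the lowest total count of the 9 and the largest share of counts from the mitochondrial genome, 6.54%, against 3.6% and 3.37% in the other TrpA1 29C libraries, 2% to 2.23% in GAL4 control 29C, with 3.14% to 5.69% in TrpA1 21C. Results that rest on it are given with and without it.

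Of 8890 genes tested, 4196 (47.2%) differed between TrpA1 29C and GAL4 control 29C at an adjusted p of 0.05 in edgeR's quasi-likelihood test, with 2230 higher (25.1%) and 1966 lower (22.1%). Against TrpA1 21C the count was 269 (3.03%), of which 132 were higher (1.48%) and 137 lower (1.54%). The 2 controls also differed from each other, with 1463 genes (16.5%) called between TrpA1 21C and GAL4 control 29C, 864 higher (9.72%) and 599 lower (6.74%) in TrpA1 21C. Against both controls 129 genes (1.45%) were called in the same direction, 67 higher (0.754%) and 62 lower (0.697%), and 12 were called in opposite directions. The direction alone was the same in both comparisons for 6989 genes, but these comparisons share the TrpA1 29C libraries, so that number says nothing by itself. The split between higher and lower genes depended on the method: it was 55 higher and 78 lower with RLE scaling, 168 and 457 with DESeq2, and 76 and 124 once a trend with gene length was removed.

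The 67 higher genes lay 1.21-fold to 4.57-fold above GAL4 control 29C, with a median of 1.66-fold, and 1.43-fold to 6.74-fold above TrpA1 21C, with a median of 1.96-fold. The 62 lower genes lay at 0.207 to 0.798 of the GAL4 control 29C level, with a median of 0.622, and at 0.302 to 0.721 of the TrpA1 21C level. All 3 TrpA1 29C libraries lay outside the range of the 6 control libraries for 126 of the 129 genes, a pattern found in 1829 of all tested genes (20.6%). The 129 were chosen on these same libraries, so the lack of overlap here and below follows largely from the choice and is a description. TrpA1 29C replicate 2 was the most extreme of its group for 58 of the 67 higher and 59 of the 62 lower genes. Without it, 275 genes were called against both controls, 110 of them among the 129. The sign of all 129 genes in both comparisons was kept whichever of the 9 libraries was left out, but both calls survived all 9 omissions for 12 genes. These 12 were CG13325, CG3226, CG7033, CG8258, Cct5, Cctgamma, HP4, SelD, Sox102F, Tspo, sals and scf. Of the 50 genes named below, leaving out a TrpA1 29C library ended a call for 4, 7 and 7 (replicates 1, 2 and 3), a GAL4 control 29C library for 19, 23 and 20, and a TrpA1 21C library for 33, 34 and 28.

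**Figure D1:**
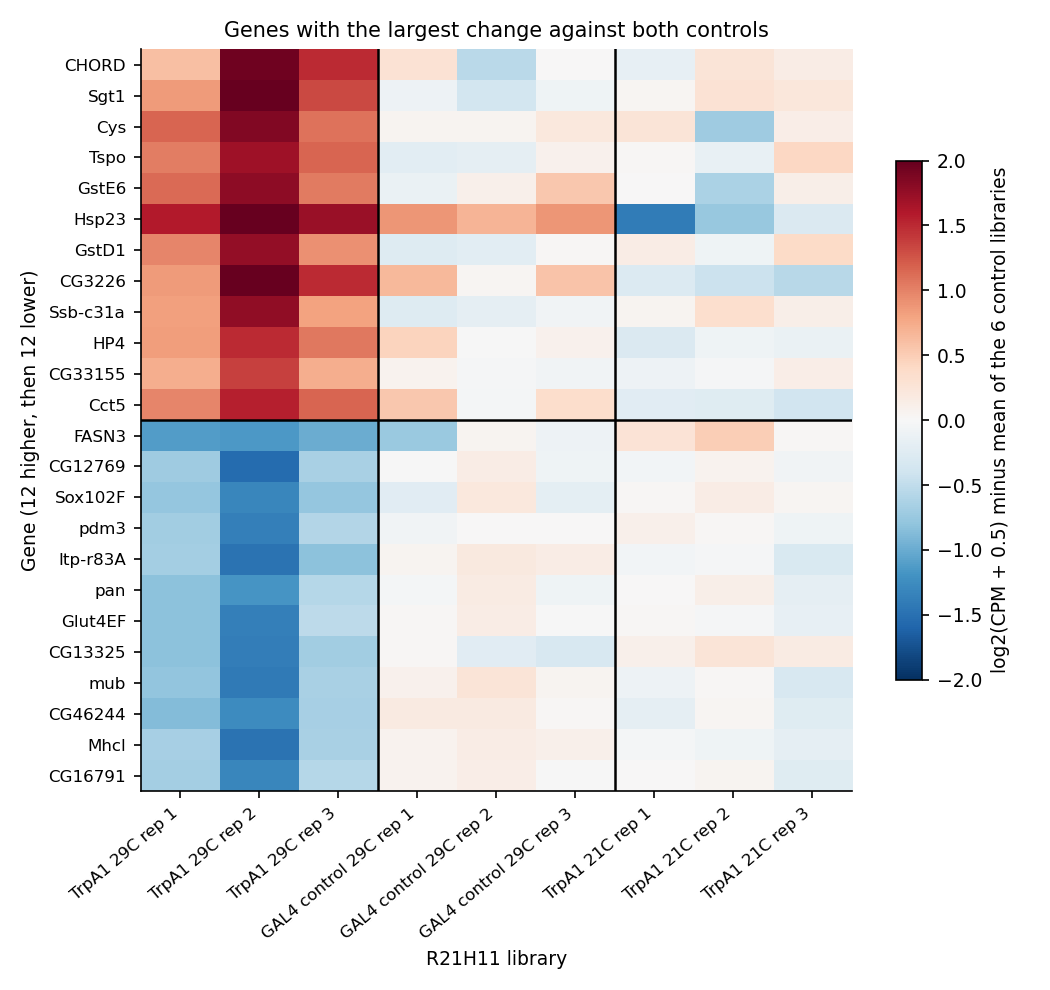
The heat map shows the 12 higher and 12 lower genes with the largest change against both controls (rows) in each of the 9 R21H11 libraries (columns, TrpA1 29C at the left), as log2 CPM minus the gene's mean over the 6 control libraries. The upper 12 genes are red and the lower 12 blue in all 3 TrpA1 29C libraries, most strongly in replicate 2, while Hsp23 also separates the GAL4 control 29C libraries from the TrpA1 21C libraries.

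The CCT chaperonin rose as a whole. All 8 subunits were higher in TrpA1 29C than in GAL4 control 29C, by 1.27-fold to 2.44-fold, and higher than in TrpA1 21C, by 1.69-fold to 2.92-fold, where 25.1% and 1.48% of all tested genes were called higher. The median log2 change of the 8 was 0.78 against GAL4 control 29C and 1.16 against TrpA1 21C, beside medians of 0.09 and 0.03 over all tested genes. Their CPM values summed to 790.1, 1078 and 928 in TrpA1 29C, 618, 427 and 591 in GAL4 control 29C, with 392, 418 and 423 in TrpA1 21C, so the activated libraries lay above every control library. Between the controls, 7 of the 8 lay lower in TrpA1 21C than in GAL4 control 29C, 5 of them past the test, and CG5525 lay the other way.

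The Cct5 values were 88.6, 132 and 100.4 CPM in TrpA1 29C libraries, 64.8, 43.4 and 57.3 in GAL4 control 29C libraries and 38.2, 37.5 and 34.0 in TrpA1 21C libraries. The 3 groups did not overlap for this subunit, CCT5, which rose against GAL4 control 29C (log2 change 0.95 ± 0.17, adjusted p = 0.0036) and against TrpA1 21C (log2 change 1.54 ± 0.17, adjusted p = 0.00207). Levels of CG8258 were 149, 193 and 187 CPM in TrpA1 29C, and they were 122, 73.8 and 109.5 in GAL4 control 29C, with TrpA1 21C at 58.9, 67.1 and 68.9. CG8258 encodes CCT8, and its 3 groups were likewise separate (log2 change 0.79 ± 0.17, adjusted p = 0.00544 against GAL4 control 29C and log2 change 1.44 ± 0.18, adjusted p = 0.0032 against TrpA1 21C). Cctgamma had 95.2, 137 and 129.8 CPM in TrpA1 29C, against 81.8, 52.5 and 78.2 in GAL4 control 29C, with 44.3, 48.1 and 46.2 in TrpA1 21C. It encodes CCT3 and rose by 0.77 and 1.38 on the log2 scale against the GAL4 control 29C and TrpA1 21C groups. In TrpA1 29C CG7033 stood at 143, 181 and 145 CPM, whereas GAL4 control 29C had 109, 82.6 and 110.4 and TrpA1 21C had 67.5, 70.6 and 67.6. CG7033, the CCT2 gene, showed the same order of groups, with changes of 0.63 against GAL4 control 29C and 1.19 against TrpA1 21C.

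The CG5525 values were 94.0, 145 and 112 CPM in TrpA1 29C libraries, 53.5, 38.5 and 51.2 in GAL4 control 29C libraries and 54.0, 68.4 and 64.1 in TrpA1 21C libraries. CG5525 encodes CCT4 and was the subunit furthest above GAL4 control 29C (log2 change 1.29 ± 0.18, adjusted p = 0.00351), and it also lay higher in TrpA1 21C than in GAL4 control 29C without being called (log2 change 0.38 ± 0.18, adjusted p = 0.143). Levels of T-cp1 were 83.3, 139.9 and 98.9 CPM in TrpA1 29C, and they were 64.2, 46.3 and 69.6 in GAL4 control 29C, with TrpA1 21C at 47.0, 45.9 and 54.7. The CCT1 gene T-cp1 rose against GAL4 control 29C (log2 change 0.84 ± 0.20, adjusted p = 0.00714) and against TrpA1 21C (log2 change 1.12 ± 0.20, adjusted p = 0.0149), and its controls overlapped each other. Tcp-1eta had 57.0, 58.6 and 67.8 CPM in TrpA1 29C, against 44.8, 34.8 and 43.9 in GAL4 control 29C, with 38.2, 32.8 and 37.6 in TrpA1 21C. The CCT7 gene Tcp-1eta had log2 changes of 0.57 and 0.75 against GAL4 control 29C and TrpA1 21C, again with no activated library inside the control range. In TrpA1 29C Tcp-1zeta stood at 79.8, 90.7 and 88.3 CPM, whereas GAL4 control 29C had 77.3, 55.3 and 71.1 and TrpA1 21C had 44.2, 48.0 and 49.6. For Tcp-1zeta, the CCT6 gene, the gap between the lowest TrpA1 29C library and the highest GAL4 control 29C library was the narrowest of the 8, and its call against GAL4 control 29C was the weakest (log2 change 0.34 ± 0.13, adjusted p = 0.0466).

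**Figure D2:**
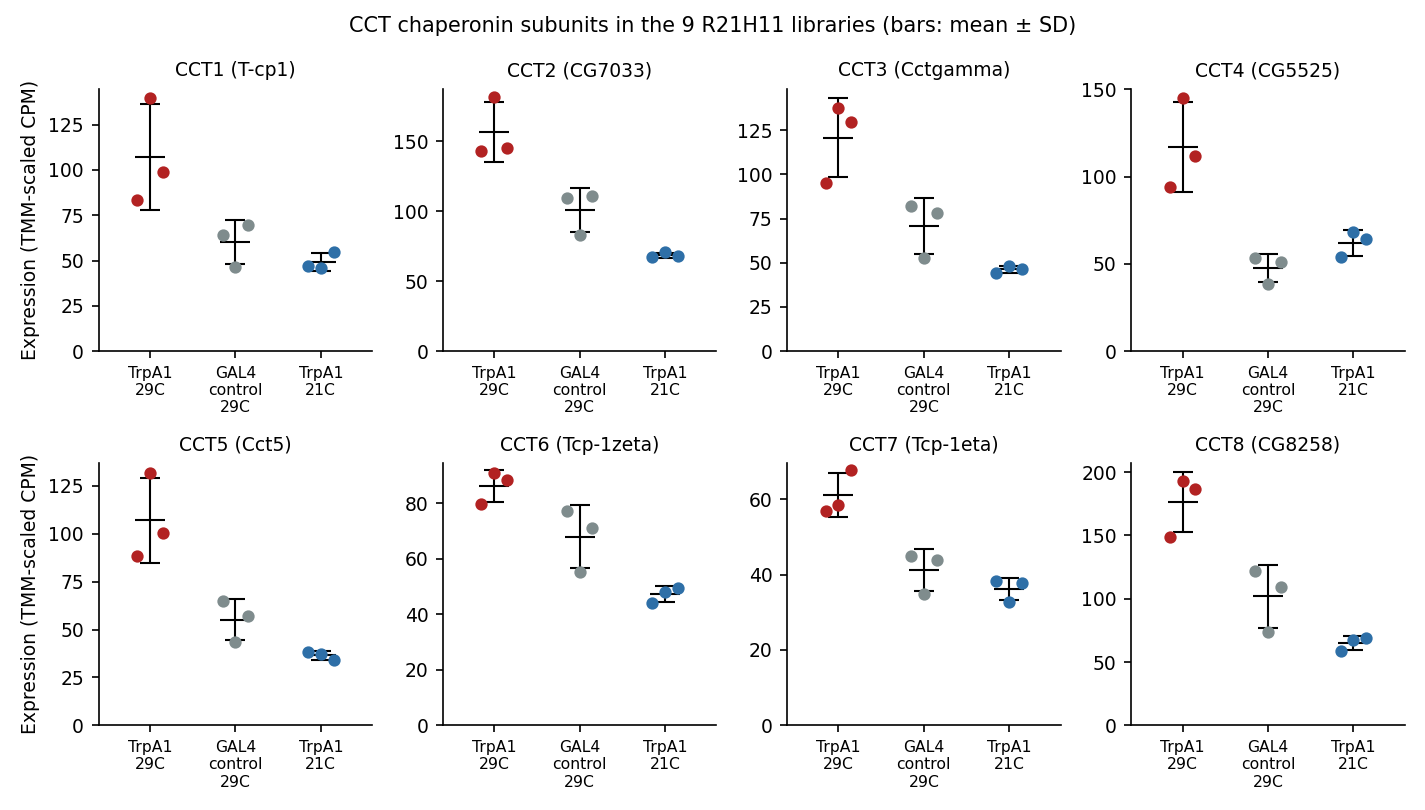
Each panel plots TMM-scaled CPM (y axis, from 0) of a CCT subunit in the TrpA1 29C, GAL4 control 29C and TrpA1 21C groups (x axis), with a point for each library and bars for the mean ± SD of 3 libraries. In all 8 panels the 3 TrpA1 29C points lie above the 6 control points, with CCT6 closest to its GAL4 control 29C points.

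The subunits were close to the typical gene in length, at 0.925 to 1.05 times the median of all tested genes. With the length trend removed, 7 of the 8 were still called against both controls, with medians of 0.62 and 1.10, and Tcp-1zeta was the one lost. Without TrpA1 29C replicate 2, the same 7 were called against both, with medians of 0.63 against GAL4 control 29C and 0.98 against TrpA1 21C. The TrpA1 21C libraries mattered more for the calls: 4 subunits were called against both without replicate 1 of that group, 4 without replicate 2 and 6 without replicate 3. Only 1 was called when log2(TPM + 1) was tested with limma, a scale on which the median of all genes itself moved to -0.32 against GAL4 control 29C and on which Tcp-1zeta turned to -0.10. The CCT median on that scale was 0.34 against GAL4 control 29C and 1.02 against TrpA1 21C.

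Co-chaperones and other partners of Hsp90 and Hsp70 rose alongside. Of 21 tested, 14 were higher than in GAL4 control 29C (25.1% of all tested genes), 13 higher than in TrpA1 21C (1.48%) and 10 higher than in both (0.754%), and none was lower in either comparison. The median log2 change was 0.40 against GAL4 control 29C and 0.95 against TrpA1 21C. The CHORD values were 15.5, 40.3 and 29.1 CPM in TrpA1 29C libraries, 12.4, 6.76 and 10.1 in GAL4 control 29C libraries and 8.96, 12.2 and 11.3 in TrpA1 21C libraries. CHORD (current symbol mora) and Sgt1 are Hsp90 co-chaperones that bind each other in other species. Levels of Sgt1 were 58.7, 139 and 81.0 CPM in TrpA1 29C, and they were 30.2, 24.8 and 30.2 in GAL4 control 29C, with TrpA1 21C at 33.2, 39.7 and 37.9. For both genes all activated libraries were above all control libraries, with replicate 2 far above the others. CHORD rose by 1.52 and 1.38 and Sgt1 by 1.70 and 1.32 on the log2 scale against GAL4 control 29C and TrpA1 21C (adjusted p = 0.0054 and 0.0489 for CHORD and 0.00351 and 0.0286 for Sgt1). Without TrpA1 29C replicate 2, CHORD stood at 1.04 against TrpA1 21C and was not called there (adjusted p = 0.078).

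CG1416 had 137, 249.5 and 213 CPM in TrpA1 29C, against 131, 68.0 and 121 in GAL4 control 29C, with 70.6, 74.8 and 72.5 in TrpA1 21C. CG1416 is the fly relative of Aha1, which speeds the ATPase of Hsp90, and rose against GAL4 control 29C (log2 change 0.90 ± 0.26, adjusted p = 0.0169) and against TrpA1 21C (log2 change 1.46 ± 0.26, adjusted p = 0.0185). Neither call was kept without TrpA1 29C replicate 2 (0.71, adjusted p = 0.134, and 1.27, adjusted p = 0.0868). In TrpA1 29C FKBP59 stood at 149, 186 and 167 CPM, whereas GAL4 control 29C had 131, 121 and 130.4 and TrpA1 21C had 104, 99.9 and 102. FKBP59, an immunophilin that binds Hsp90, changed less, by 0.39 and 0.72 on the log2 scale, with no overlap between activated and control libraries. The CG3226 values were 74.5, 172 and 117 CPM in TrpA1 29C libraries, 64.6, 42.4 and 61.7 in GAL4 control 29C libraries and 34.1, 30.6 and 27.9 in TrpA1 21C libraries. CG3226 was the member with the largest change against TrpA1 21C (log2 change 1.97 ± 0.28, adjusted p = 0.00958), and its change against GAL4 control 29C was 1.10 (adjusted p = 0.0102). The length-corrected changes against GAL4 control 29C were 0.033 for FKBP59 (adjusted p = 0.78), 0.40 for CG3226 (adjusted p = 0.276) and 0.58 for CG1416 (adjusted p = 0.182), and none of the 3 was called there.

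Levels of Hsc70-4 were 1804, 2132 and 2060.4 CPM in TrpA1 29C, and they were 1638, 1244 and 1628 in GAL4 control 29C, with TrpA1 21C at 1017, 961 and 959. Hsc70-4 is the main constitutive Hsp70 of the fly cytosol, and its increase against TrpA1 21C (log2 change 1.03 ± 0.14, adjusted p = 0.0055) was larger than that against GAL4 control 29C (log2 change 0.41 ± 0.14, adjusted p = 0.0327), since the controls themselves differed (log2 change -0.62 ± 0.14, adjusted p = 0.0204). Droj2 had 1049.5, 1317 and 1169 CPM in TrpA1 29C, against 942, 745 and 866 in GAL4 control 29C, with 505, 524 and 644 in TrpA1 21C. Droj2, a DnaJ protein that feeds substrates to Hsp70, had the same order of groups (log2 change 0.47 ± 0.15, adjusted p = 0.0231 against GAL4 control 29C and log2 change 1.08 ± 0.15, adjusted p = 0.0055 against TrpA1 21C). In TrpA1 29C mbf1 stood at 168, 218 and 221 CPM, whereas GAL4 control 29C had 169, 130.0 and 167 and TrpA1 21C had 94.3, 106 and 113. In mbf1, a transcriptional co-activator rather than a chaperone, the lowest activated library lay below the highest GAL4 control 29C library, and the call against GAL4 control 29C was marginal (log2 change 0.38 ± 0.14, adjusted p = 0.0493) and was lost without TrpA1 29C replicate 2 (0.32, adjusted p = 0.105). Neither was called against GAL4 control 29C after the length correction, where Droj2 stood at 0.28 (adjusted p = 0.0829) and mbf1 at 0.016 (adjusted p = 0.936).

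The mitochondrial chaperonin is made of Hsp60 with its lid protein Hsp10, encoded by CG11267. The Hsp60 values were 1432, 1937 and 1460.5 CPM in TrpA1 29C libraries, 1039, 932 and 937 in GAL4 control 29C libraries and 782, 835 and 877 in TrpA1 21C libraries. Levels of CG11267 were 112, 209.9 and 118 CPM in TrpA1 29C, and they were 89.4, 72.2 and 81.3 in GAL4 control 29C, with TrpA1 21C at 59.3, 65.2 and 63.1. Every activated library exceeded every control library for both genes. Hsp60 rose against GAL4 control 29C (log2 change 0.73 ± 0.14, adjusted p = 0.00404) and against TrpA1 21C (log2 change 0.95 ± 0.14, adjusted p = 0.00851). CG11267 rose by 0.85 against GAL4 control 29C and by 1.23 against TrpA1 21C, but this short gene, 0.205 times the median length, lay at -0.04 against GAL4 control 29C once the length trend was removed and at 0.50 without TrpA1 29C replicate 2. Of the 10 members of the partner list called against both, 4 kept both calls with the length trend removed: CHORD, Sgt1, Hsc70-4 and Hsp60. In that fit Hsc70-5 and unc-45 gained both calls, which made 6 of the 21. Leaving out TrpA1 29C replicate 2, 7 members of this list were called against both.

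A smaller share of the classical heat-inducible proteins passed the tests. Their median log2 change was 1.545 against GAL4 control 29C and 0.92 against TrpA1 21C, beside 0.09 and 0.03 over all tested genes. Of 17 tested, 6 were higher than in GAL4 control 29C, a share not far above the 25.1% of all tested genes, 3 were higher than in TrpA1 21C (1.48% of all) and 2, Hsp23 and Hsp83, higher than in both (0.754%). Hsp23 had 366, 691 and 404 CPM in TrpA1 29C, against 224, 194 and 225 in GAL4 control 29C, with 45.9, 72 and 99.0 in TrpA1 21C. Hsp23, a small heat shock protein, followed the order TrpA1 29C, GAL4 control 29C, TrpA1 21C without overlap, and rose against GAL4 control 29C (log2 change 1.18 ± 0.29, adjusted p = 0.00966) and against TrpA1 21C (log2 change 2.75 ± 0.31, adjusted p = 0.0032). In TrpA1 29C Hsp83 stood at 1329, 2565 and 2389.9 CPM, whereas GAL4 control 29C had 1449.6, 737 and 1316 and TrpA1 21C had 814, 1060.0 and 767. Hsp83 encodes fly Hsp90, and here replicate 1 of TrpA1 29C lay inside the GAL4 control 29C range (log2 change 0.84 ± 0.29, adjusted p = 0.0352 against GAL4 control 29C and log2 change 1.25 ± 0.29, adjusted p = 0.0489 against TrpA1 21C). Hsp68 was called against TrpA1 21C (log2 change 2.04, adjusted p = 0.0476) but not against GAL4 control 29C (1.09, adjusted p = 0.0572). Hsp70Bbb was called against GAL4 control 29C (log2 change 3.09, adjusted p = 0.0458) but not against TrpA1 21C (0.92, adjusted p = 0.539). The Hsp70 genes are near-identical copies, so the division of reads among them is uncertain. Without TrpA1 29C replicate 2, Hsp23 stood at 0.84 against GAL4 control 29C (adjusted p = 0.0671) and Hsp83 at 0.67 against GAL4 control 29C (adjusted p = 0.227) and 1.08 against TrpA1 21C (adjusted p = 0.187), so 0 of the 17 were called against both controls. The length-corrected fit likewise called 0 against both, with Hsp23 at 0.47 against GAL4 control 29C (adjusted p = 0.16) and Hsp83 at 0.98 against GAL4 control 29C (adjusted p = 0.118) and 1.31 against TrpA1 21C (adjusted p = 0.0747).

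**Figure D3:**
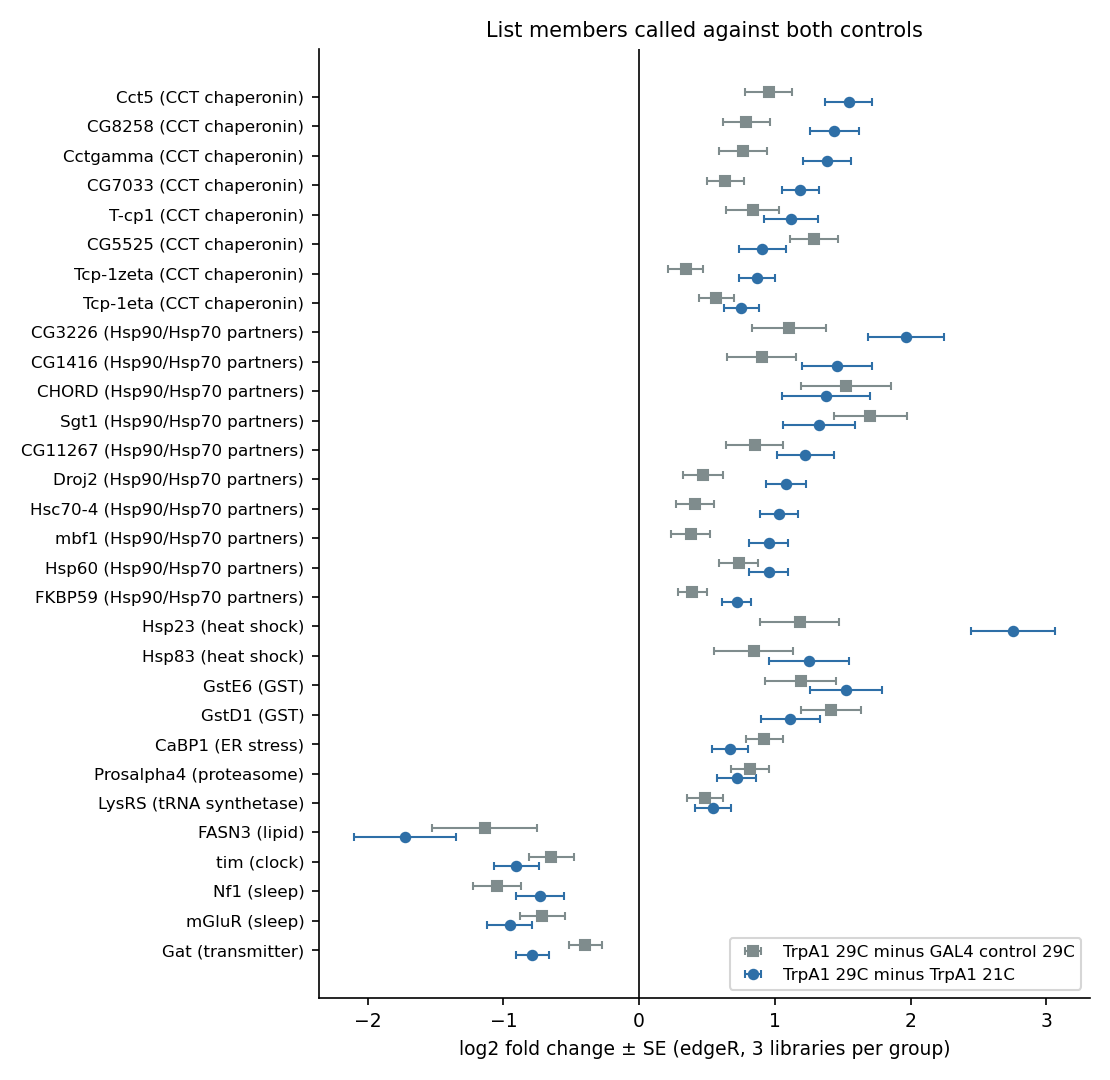
Log2 fold change ± SE (x axis) is shown for each member of a gene list that was called against both controls (y axis), from edgeR with 3 libraries per group. Squares give TrpA1 29C minus GAL4 control 29C and circles TrpA1 29C minus TrpA1 21C. For 7 of the 8 CCT subunits the change against TrpA1 21C is the larger of the pair, with CG5525 the exception, and the 5 lower genes stand at the bottom.

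GstD1, GstE6 and Tspo were among the 12 higher genes with the largest change against both controls. The GstD1 values were 300.4, 518 and 288 CPM in TrpA1 29C libraries, 127, 132 and 155 in GAL4 control 29C libraries and 169, 144 and 199 in TrpA1 21C libraries. GstD1, a glutathione transferase that responds to oxidative stress, rose against GAL4 control 29C (log2 change 1.41 ± 0.22, adjusted p = 0.00351) and against TrpA1 21C (log2 change 1.11 ± 0.22, adjusted p = 0.0235), with no overlap. Levels of GstE6 were 28.1, 44.4 and 26.4 CPM in TrpA1 29C, and they were 11.4, 13.5 and 18.4 in GAL4 control 29C, with TrpA1 21C at 12.6, 7.94 and 13.6. GstE6, another glutathione transferase, rose by 1.19 and 1.52 on the log2 scale against GAL4 control 29C and TrpA1 21C. They were the 2 called against both among 40 glutathione transferases and UGTs tested, of which 19 were higher than in GAL4 control 29C (25.1% of all tested genes) and 2 higher than in TrpA1 21C (1.48%). After the length correction, 2 of the 40 were higher than in GAL4 control 29C, and GstE6 stood at 0.42 there (adjusted p = 0.157). Glutathione transferase genes form families of similar sequence, so their estimated counts can depend on how reads were shared out.

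Tspo had 143, 227 and 157 CPM in TrpA1 29C, against 60.4, 61.9 and 74.0 in GAL4 control 29C, with 70.9, 63.0 and 93.6 in TrpA1 21C. Tspo encodes the translocator protein of the outer mitochondrial membrane, and it rose against GAL4 control 29C (log2 change 1.42 ± 0.20, adjusted p = 0.00351) and against TrpA1 21C (log2 change 1.21 ± 0.19, adjusted p = 0.0106). In TrpA1 29C Cys stood at 50.8, 82.7 and 48.2 CPM, whereas GAL4 control 29C had 23.3, 23.4 and 26.1 and TrpA1 21C had 27.1, 13.6 and 24.7. Cys, an inhibitor of cysteine proteases, rose by 1.32 and 1.47, and its TrpA1 29C libraries were all above the controls. The Sod values were 744, 1583 and 709 CPM in TrpA1 29C libraries, 316, 299.5 and 315 in GAL4 control 29C libraries and 427, 443 and 578 in TrpA1 21C libraries. Sod, the cytosolic superoxide dismutase, was higher than in GAL4 control 29C (log2 change 1.71 ± 0.28, adjusted p = 0.00351) and above every control library, but it missed the threshold against TrpA1 21C (log2 change 1.07 ± 0.28, adjusted p = 0.0606). Catalase (Cat) was in the same position, at 1.14 against GAL4 control 29C (adjusted p = 0.00351) and 0.81 against TrpA1 21C (adjusted p = 0.0518). Cys was not called against GAL4 control 29C with the length trend removed (0.34, adjusted p = 0.273).

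Of 16 antioxidant genes, 12 were higher and 1 lower than in GAL4 control 29C (25.1% and 22.1% of all tested genes), and none was called against TrpA1 21C (3.03%). This depended on the fit. With the length trend removed, 6 were higher than in GAL4 control 29C and 4 higher than in TrpA1 21C, and Sod (0.88 and 0.72), Cat (0.99 and 0.75) and GSS (0.29 and 0.31) were called higher against both. Over all genes that fit called 1220 and 821 in these comparisons in either direction. Leaving out TrpA1 29C replicate 2, 2 of the 16 were called higher against both.

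Fat body RNA, which can adhere to dissected brains and expresses many of these detoxification genes, varied between libraries. Its 6 marker genes summed to 1617, 1846 and 868 CPM in TrpA1 29C, 242, 460 and 829 CPM in GAL4 control 29C, with 1090.1, 279 and 723 CPM in TrpA1 21C. Levels of Yp3 were 694, 624 and 231 CPM in TrpA1 29C, and they were 7.25, 32.1 and 122 in GAL4 control 29C, with TrpA1 21C at 245, 16.8 and 166. None of the 4 fat body markers tested was called in either comparison, and no marker was at 0 in all libraries. The part of these cells in the changes of GstD1, GstE6 and the others was not tested.

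Ssb-c31a had 43.5, 84.3 and 42.8 CPM in TrpA1 29C, against 20.3, 21.3 and 23.2 in GAL4 control 29C, with 25.3, 30.8 and 26.5 in TrpA1 21C. Ssb-c31a, a single-stranded DNA-binding co-activator of transcription, rose against GAL4 control 29C (log2 change 1.39 ± 0.24, adjusted p = 0.00351) and against TrpA1 21C (log2 change 1.04 ± 0.23, adjusted p = 0.0412). In TrpA1 29C HP4 stood at 29.6, 46.9 and 34.4 CPM, whereas GAL4 control 29C had 22.4, 16.3 and 17.3 and TrpA1 21C had 13.2, 15.3 and 14.9. HP4, a heterochromatin protein, rose by 0.98 and 1.35 on the log2 scale. The CG33155 values were 111, 174 and 112 CPM in TrpA1 29C libraries, 70.7, 66.0 and 63.9 in GAL4 control 29C libraries and 62.5, 65.9 and 73.5 in TrpA1 21C libraries. CG33155 rose by 0.98 and 0.97. In these 3 genes all activated libraries exceeded all controls, and replicate 2 was the highest. They were 0.175 to 0.292 times the median gene in length, and among them Ssb-c31a kept both calls with the length trend removed, while HP4 stood at 0.15 (adjusted p = 0.459) and CG33155 at 0.22 (adjusted p = 0.0538) against GAL4 control 29C. The Ssb-c31a change against TrpA1 21C was 0.65 without TrpA1 29C replicate 2.

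Other arms of protein quality control gave isolated calls. Levels of CaBP1 were 79.1, 114 and 83.1 CPM in TrpA1 29C, and they were 48.2, 46.8 and 50.6 in GAL4 control 29C, with TrpA1 21C at 56.8, 59.0 and 57.5. CaBP1, a protein disulfide isomerase of the endoplasmic reticulum, was the member called against both among 25 genes of endoplasmic reticulum stress (log2 change 0.92 ± 0.14, adjusted p = 0.00351 against GAL4 control 29C and log2 change 0.67 ± 0.14, adjusted p = 0.0263 against TrpA1 21C). Of the 25, 10 were higher and 3 lower than in GAL4 control 29C (25.1% and 22.1% of all tested genes) and 3 higher than in TrpA1 21C (1.48%). Hsc70-3, the fly BiP that is raised by waking in earlier work, was higher than in TrpA1 21C (log2 change 0.74, adjusted p = 0.011) but stood at 0.15 against GAL4 control 29C (adjusted p = 0.339). Hsc70-3 (0.36 and 0.84) and Xbp1 (0.53 and 0.44) were called higher against both controls, together with CaBP1, once the length trend was removed. Prosalpha4 had 45.5, 60.6 and 47.7 CPM in TrpA1 29C, against 30.0, 29.1 and 27.9 in GAL4 control 29C, with 30.2, 27.6 and 35.5 in TrpA1 21C. Prosalpha4 was the proteasome subunit called against both, of 32 tested. Of the 32, 23 were higher than in GAL4 control 29C (25.1% of all tested genes) and 1 higher than in TrpA1 21C (1.48%). With the length trend removed, 4 of the 32 were higher than in GAL4 control 29C and 0 were called against both. In TrpA1 29C LysRS stood at 78.1, 93.9 and 75.2 CPM, whereas GAL4 control 29C had 66.6, 49.1 and 60.5 and TrpA1 21C had 57.6, 56.6 and 54.9. LysRS, which charges the lysine tRNA, was called against both (log2 change 0.49 ± 0.13, adjusted p = 0.0118 against GAL4 control 29C and log2 change 0.54 ± 0.13, adjusted p = 0.0489 against TrpA1 21C). Of the 18 aminoacyl-tRNA synthetases 7 were higher and 2 lower than in GAL4 control 29C (25.1% and 22.1% of all tested genes). After the length correction, Prosalpha4 (0.29, adjusted p = 0.0544) and LysRS (0.34, adjusted p = 0.0575) were not called against GAL4 control 29C, and SerRS and TyrRS were called higher against both.

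The genes that fell included regulators of calcium, transmitter signalling and transcription. The Itp-r83A values were 151, 86.1 and 137 CPM in TrpA1 29C libraries, 251, 275 and 267 in GAL4 control 29C libraries and 232, 237 and 196 in TrpA1 21C libraries. Itp-r83A (current symbol Itpr) encodes the IP3 receptor, which releases calcium from the endoplasmic reticulum. Its RNA fell against GAL4 control 29C (log2 change -1.08 ± 0.18, adjusted p = 0.00351) and against TrpA1 21C (log2 change -0.83 ± 0.18, adjusted p = 0.0356), with all activated libraries below all controls. Levels of mGluR were 169, 128 and 189 CPM in TrpA1 29C, and they were 256, 302 and 239.7 in GAL4 control 29C, with TrpA1 21C at 322, 353 and 268. mGluR, the metabotropic glutamate receptor, fell by 0.71 and 0.96 on the log2 scale against GAL4 control 29C and TrpA1 21C (adjusted p = 0.00631 and 0.0132). Gat had 341, 294 and 283 CPM in TrpA1 29C, against 380.5, 444 and 384 in GAL4 control 29C, with 499.8, 565 and 520.4 in TrpA1 21C. Gat, which clears GABA into glia, fell against GAL4 control 29C (log2 change -0.40 ± 0.12, adjusted p = 0.022) and against TrpA1 21C (log2 change -0.79 ± 0.12, adjusted p = 0.00958). Of 36 genes of fast transmitter synthesis, transport and reception, 26 were lower than in GAL4 control 29C (22.1% of all tested genes), 4 lower than in TrpA1 21C (1.54%) and 2, mGluR and Gat, lower than in both (0.697%). Without TrpA1 29C replicate 2, 8 of the 36 were lower than in TrpA1 21C and 5 lower than in both. The length-corrected counts were 3 lower and 4 higher than in GAL4 control 29C and 11 lower than in TrpA1 21C. In that fit none of Itp-r83A (-0.15, adjusted p = 0.176), mGluR (-0.068, adjusted p = 0.633) and Gat (-0.22, adjusted p = 0.127) was called against GAL4 control 29C, and all 3 were called lower against TrpA1 21C.

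In TrpA1 29C Nf1 stood at 192, 121 and 192 CPM, whereas GAL4 control 29C had 329.9, 378 and 337 and TrpA1 21C had 284, 312 and 243. Nf1, the Ras regulator neurofibromin, whose loss disturbs fly sleep, fell by 1.05 against GAL4 control 29C and by 0.73 against TrpA1 21C, where its adjusted p was 0.0497. Among 36 sleep regulators tested, 1 was higher and 23 were lower than in GAL4 control 29C, where 25.1% and 22.1% of all tested genes were called. The 2 lower than in TrpA1 21C (1.54% of all), mGluR and Nf1, were lower than in both (0.697%). When TrpA1 29C replicate 2 was left out, 6 of the 36 were lower than in both, and with the length trend removed 3 were lower than in GAL4 control 29C, 6 lower than in TrpA1 21C and 0 lower than in both. Over all genes those fits called 208 and 124 lower against both, in that order. The tim values were 40.7, 24.2 and 37.6 CPM in TrpA1 29C libraries, 50.5, 54.1 and 57.1 in GAL4 control 29C libraries and 67.4, 63.6 and 62.1 in TrpA1 21C libraries. The clock gene tim (timeless), which encodes a repressor of the circadian oscillator, fell against GAL4 control 29C (log2 change -0.65 ± 0.17, adjusted p = 0.00958) and against TrpA1 21C (log2 change -0.91 ± 0.17, adjusted p = 0.017) without overlap. It was the clock gene called against both, of 14 tested (0.697% of all tested genes were lower in both). Its partner per was not called against GAL4 control 29C (log2 change -0.43, adjusted p = 0.0829) or against TrpA1 21C (-0.34, adjusted p = 0.265). Of the 14, 4 were higher and 5 lower than in GAL4 control 29C (25.1% and 22.1% of all tested genes). After removal of the length trend, tim stood at -0.056 (adjusted p = 0.724) and Nf1 at -0.14 (adjusted p = 0.18) against GAL4 control 29C, and neither was called there.

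Levels of pan were 564, 443 and 674 CPM in TrpA1 29C, and they were 977, 1123 and 945 in GAL4 control 29C, with TrpA1 21C at 999, 1081 and 885. The gene pan encodes TCF, the transcription factor of Wingless signalling. Sox102F had 63.6, 43.9 and 63.3 CPM in TrpA1 29C, against 92.9, 126 and 95.0 in GAL4 control 29C, with 111, 120.4 and 111 in TrpA1 21C. Sox102F is a Sox transcription factor and pdm3 a POU homeodomain factor. In TrpA1 29C pdm3 stood at 109, 67.8 and 117 CPM, whereas GAL4 control 29C had 168, 178 and 177 and TrpA1 21C had 189, 180.0 and 167. All 3 fell in every activated library relative to every control library, by 0.86, 0.88 and 0.83 on the log2 scale against GAL4 control 29C and by 0.82, 1.0 and 0.86 against TrpA1 21C, in the order pan, Sox102F, pdm3. Glut4EF, a further transcription factor, fell by 0.92 and 0.81 against GAL4 control 29C and TrpA1 21C. Of these, pan (-0.087, adjusted p = 0.48), pdm3 (-0.26, adjusted p = 0.0504) and Glut4EF (-0.041, adjusted p = 0.731) were not called against GAL4 control 29C with the length trend removed.

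The mub values were 651, 418 and 714 CPM in TrpA1 29C libraries, 1184, 1342 and 1169.6 in GAL4 control 29C libraries and 1046, 1134 and 898 in TrpA1 21C libraries. The RNA-binding protein gene mub fell by 1.05 against GAL4 control 29C and by 0.79 against TrpA1 21C (adjusted p = 0.0036 and 0.0489). Levels of Mhcl were 199.9, 114 and 202 CPM in TrpA1 29C, and they were 335, 352 and 339.6 in GAL4 control 29C, with TrpA1 21C at 309, 298 and 279. Mhcl, a myosin heavy chain-like gene, fell by 0.99 and 0.78 in the same comparisons. Neither gene overlapped between activated and control libraries. CG5549 had 131, 108 and 127 CPM in TrpA1 29C, against 207, 225 and 195 in GAL4 control 29C, with 178, 171 and 162 in TrpA1 21C. CG5549 (current symbol GlyT), a glycine transporter gene, fell by 0.78 and 0.48. In TrpA1 29C Drep4 stood at 66.5, 59.0 and 69.7 CPM, whereas GAL4 control 29C had 83.4, 90.5 and 86.6 and TrpA1 21C had 90.3, 102 and 89.9. Drep4, a gene of the DNA fragmentation factor family, fell by 0.41 and 0.53, with its activated libraries all below the controls and close to each other. The dpr4 values were 181, 121 and 163 CPM in TrpA1 29C libraries, 240.4, 225 and 213 in GAL4 control 29C libraries and 231, 239 and 236 in TrpA1 21C libraries. The cell surface immunoglobulin gene dpr4 fell by 0.54 and 0.60. Levels of FASN3 were 0.982, 0.955 and 1.12 CPM in TrpA1 29C, and they were 1.43, 2.86 and 2.5 in GAL4 control 29C, with TrpA1 21C at 3.38, 4.03 and 2.79. FASN3, a fatty acid synthase, had the largest decrease of the 62 against TrpA1 21C (log2 change -1.73 ± 0.38, adjusted p = 0.0346) at a low level. It was the lipid gene called against both, of 21 tested (0.697% of all tested genes were lower in both). Of the 21, 2 were higher and 6 lower than in GAL4 control 29C (25.1% and 22.1% of all tested genes). The FASN3 call against GAL4 control 29C was lost without TrpA1 29C replicate 2 (-1.10, adjusted p = 0.0802). After the length correction, mub (-0.16, adjusted p = 0.157), CG5549 (-0.033, adjusted p = 0.815) and FASN3 (-0.35, adjusted p = 0.579) were not called against GAL4 control 29C, nor was CG5549 against TrpA1 21C (-0.14, adjusted p = 0.311).

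The remaining named genes that fell, CG12769, CG13325, CG14431, CG16791 and CG46244, had log2 changes of -0.94, -0.79, -0.88, -0.88 and -1.04 against GAL4 control 29C in that order. Against TrpA1 21C the same 5 had -0.89, -1.14, -0.74, -0.76 and -0.78. All 5 had no activated library inside the control range. Among them CG14431 (-0.24, adjusted p = 0.0571), CG16791 (-0.11, adjusted p = 0.278) and CG46244 (-0.17, adjusted p = 0.198) were not called against GAL4 control 29C with the length trend removed.

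Markers of neurons moved with these decreases. The 7 neuronal markers summed to 7564, 6434 and 8083 CPM in TrpA1 29C, 10512, 11280.4 and 10226 CPM in GAL4 control 29C, with 9310.2, 9617 and 8824 CPM in TrpA1 21C, with every activated library below every control. Of the 7, 5 were lower than in GAL4 control 29C (22.1% of all tested genes) and 1, Gad1, was lower than in TrpA1 21C (1.54%). Once the length trend was removed, 2 were higher and 2 lower than in GAL4 control 29C, the medians were 0.10 against GAL4 control 29C and -0.034 against TrpA1 21C, and elav was called higher against both (0.43 and 0.58). The 6 glial markers summed to 2990.02 to 3215 CPM in TrpA1 29C, 2957 to 3105 CPM in GAL4 control 29C, with 3313 to 3743 CPM in TrpA1 21C, and no marker of either list was at 0 in all libraries. In whole-brain RNA, fewer cells of a type and less RNA per cell cannot be told apart. The part of the marker shift in the lower genes was not tested.

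Transcript length moved with the result throughout. When all tested genes were divided into 5 classes of 1778 by relative length, the median log2 change against GAL4 control 29C was 0.76, 0.42, 0.13, -0.21 and -0.62 from the shortest class to the longest. Against TrpA1 21C it was 0.30, 0.17, 0.07, -0.09 and -0.27. The same trend separated the controls, at 0.45, 0.24, 0.07, -0.13 and -0.36 for TrpA1 21C against GAL4 control 29C. The 67 higher genes had a median length 0.601 times that of all tested genes, and the 62 lower genes 2.47 times. The classes held 26, 20, 16, 5 and 0 of the higher genes and 0, 1, 5, 12 and 44 of the lower genes in the same order.

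**Figure D4:**
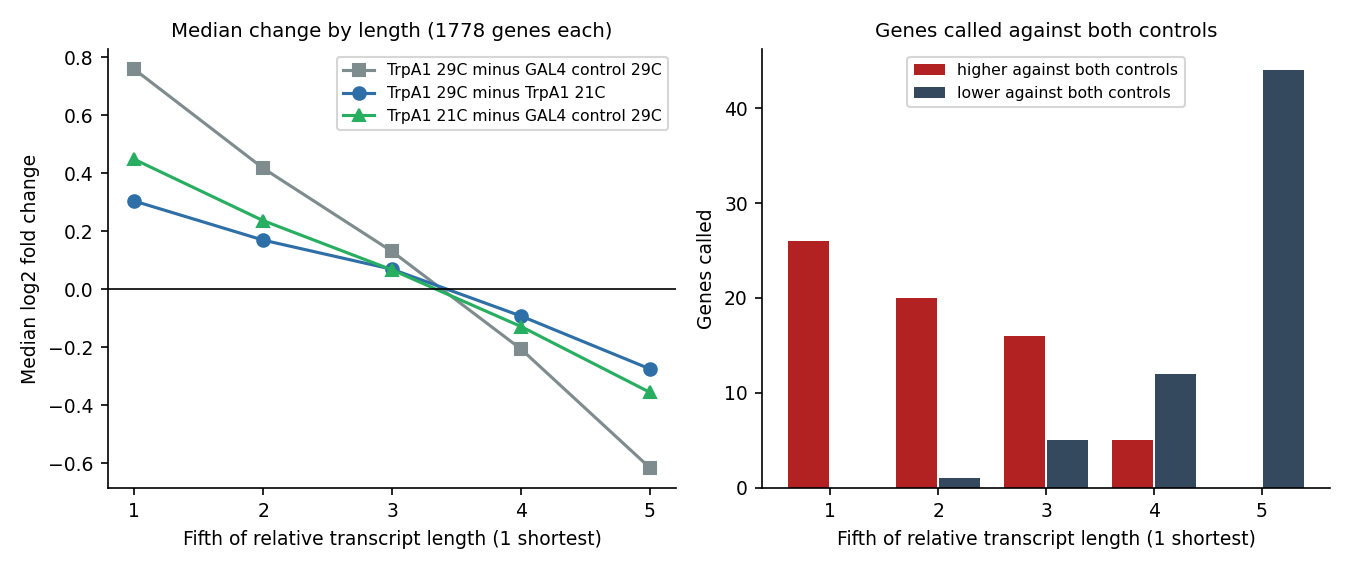
The left panel plots the median log2 fold change (y axis) of 1778 genes in each class of relative transcript length (x axis, 1 the shortest) for the 3 pairs of R21H11 groups. The right panel counts the genes called higher or lower against both controls in each class, and 44 of the 62 lower genes lie in the longest class while 0 of the 67 higher genes do.

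A fit that removed this trend from each library called 200 genes against both controls, 76 higher and 124 lower, and 41 of them were among the 129, 23 higher and 18 lower. Named genes that kept both calls included the 7 CCT subunits, CHORD, Sgt1, Hsc70-4, Hsp60, CaBP1, GstD1, Tspo and Ssb-c31a among the higher and CG12769, CG13325, dpr4, Drep4, Mhcl and Sox102F among the lower. The other 29 of the 50 named genes lost a call. The origin of the length trend was not tested.

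Many gene groups gave no call against both controls. Transcripts known to rise with neuronal activity were among them. Of 15 tested, 7 were lower than in GAL4 control 29C (22.1% of all tested genes) and 0 were called against TrpA1 21C (3.03%). Between the controls, 3 were lower in TrpA1 21C than in GAL4 control 29C (6.74%). Hr38, a nuclear receptor gene that is a standard reporter of activity in insect neurons, was lower than in GAL4 control 29C (log2 change -1.84, adjusted p = 0.0242) and stood at -0.02 against TrpA1 21C (adjusted p = 0.979). The gene sr (stripe), the fly Egr relative, had the same pattern, at -1.32 (adjusted p = 0.00776) and 0.18 (adjusted p = 0.714). After the length correction, 4 of the 15 were lower and 1 higher than in GAL4 control 29C, and 4 were higher than in TrpA1 21C. In that fit hdc was called higher against both (0.56 and 0.57). Without the correction hdc was lower than in GAL4 control 29C (log2 change -0.53, adjusted p = 0.0334, edgeR). When TrpA1 29C replicate 2 was left out, 2 of the 15 were lower than in GAL4 control 29C.

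Genes of protein synthesis and respiration were mostly higher than in GAL4 control 29C, where 25.1% of all tested genes were called higher, without a call against TrpA1 21C. This held for 74 of 76 cytosolic ribosomal proteins, 58 of 73 mitochondrial ribosomal proteins (1 was lower), 56 of 65 nuclear respiratory chain genes and 11 of 13 genes of the mitochondrial genome. Between the controls, 44 of 76, 8 of 73, 37 of 65 and 9 of 13 were higher in TrpA1 21C than in GAL4 control 29C (9.72% of all tested genes). Neuropeptide precursors showed 17 of 33 higher and 1 lower than in GAL4 control 29C and 0 called against TrpA1 21C. Between the controls, 14 of the 33 were higher in TrpA1 21C (9.72%). With the length trend removed, the genes higher than in GAL4 control 29C numbered 20 of 76, 7 of 73, 12 of 65 and 1 of 13, and 2 of 33 neuropeptide precursors, in a fit that called 1220 genes there in either direction. Lower there were 2 of 76, 3 of 73, 6 of 65 and 0 of 13. That fit also called 5 nuclear respiratory chain genes and 1 neuropeptide precursor lower than in TrpA1 21C, and ND-23 lower against both. Without TrpA1 29C replicate 2, 1 nuclear respiratory chain gene and 1 neuropeptide precursor were lower than in TrpA1 21C. Of the 13 genes of the mitochondrial genome, 6 were called higher than in GAL4 control 29C without TrpA1 29C replicate 2.

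Genes of excitability and synapses went the other way, with 22 of 32 ion channel genes lower and 3 higher, 19 of 26 synaptic release genes lower and 11 of 32 neuropeptide receptors lower than in GAL4 control 29C (22.1% of all tested genes were lower), and 0 of these 3 groups called against TrpA1 21C. The absence of calls against TrpA1 21C depended on the fit. Without TrpA1 29C replicate 2, 5 ion channel genes and 6 synaptic release genes were lower than in TrpA1 21C, and 5 and 3 were lower than in both. In the length-corrected fit, 5 ion channel and 5 synaptic release genes were lower than in GAL4 control 29C, and 3 and 1 were higher. Against TrpA1 21C, 4 and 6 were lower and 3 and 0 higher. The ion channel genes sei, NaCP60E and Ca-beta were called lower against both. Of the neuropeptide receptors, 2 were lower and 3 higher than in GAL4 control 29C in that fit, and Proc-R was called higher against both.

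Autophagy genes (25 tested) and vacuolar ATPase subunits (19 tested) also had 0 calls against TrpA1 21C, as did the 5 antimicrobial peptides that could be tested. Lower than in TrpA1 21C were 6 vacuolar ATPase subunits with the length trend removed and 3 without TrpA1 29C replicate 2. Monoamine genes had 2 of 25 higher and 16 lower than in GAL4 control 29C, where 25.1% and 22.1% of all tested genes were called. Lower than in TrpA1 21C were 2 (1.54% of all), but none was called against both. In both comparisons 3 were lower without TrpA1 29C replicate 2, and 1, DopEcR, was lower with the length trend removed. Glycolytic genes had 8 of 23 higher (25.1% of all tested genes) and 1 lower (22.1%) than in GAL4 control 29C. Of the 23, 2 were lower than in TrpA1 21C (1.54%), or 5 in either of those fits. Of 49 cytochrome P450 genes, 10 were higher than in GAL4 control 29C, a share below the 25.1% of all tested genes, 2 were lower, and 1 was higher than in TrpA1 21C (1.48% of all). Of 28 genes of Toll and Imd signalling, 3 were higher and 3 lower than in GAL4 control 29C (25.1% and 22.1% of all tested genes) and 1 was higher than in TrpA1 21C (1.48%).

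Of the 269 genes called against TrpA1 21C, 128 were not called against GAL4 control 29C, Hsp68, Hsc70-3 and Gad1 among them. Ddc had 590.3, 574 and 734 CPM in TrpA1 29C, against 542, 578 and 553 in GAL4 control 29C, with 1168, 1397 and 1372 in TrpA1 21C. Ddc, which makes dopamine and serotonin, was lower than in TrpA1 21C (log2 change -1.05 ± 0.14, adjusted p = 0.00343) and overlapped GAL4 control 29C (log2 change 0.18 ± 0.13, adjusted p = 0.279), and the controls differed (log2 change 1.23 ± 0.14, adjusted p = 0.000689). In TrpA1 29C AGBE stood at 48.7, 37.7 and 40.3 CPM, whereas GAL4 control 29C had 36, 44.2 and 38.9 and TrpA1 21C had 63.1, 76.5 and 71.3. AGBE, the glycogen branching enzyme, was lower than in TrpA1 21C (log2 change -0.73 ± 0.13, adjusted p = 0.0168) and was not called against GAL4 control 29C (log2 change 0.09 ± 0.14, adjusted p = 0.589). The PGRP-LB values were 13.3, 16.2 and 20.1 CPM in TrpA1 29C libraries, 1.94, 13.5 and 9.84 in GAL4 control 29C libraries and 1.49, 0.575 and 1.86 in TrpA1 21C libraries. PGRP-LB, an enzyme that breaks down bacterial peptidoglycan and restrains Imd signalling, was higher than in TrpA1 21C (log2 change 3.64 ± 0.65, adjusted p = 0.0235), and GAL4 control 29C replicate 1 was near the TrpA1 21C level. The ebony gene e (-0.56, adjusted p = 0.0487), Pfk (-0.47, adjusted p = 0.0467) and Cyp4d2 (0.67, adjusted p = 0.0269) were likewise called against TrpA1 21C and not against GAL4 control 29C.

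The other 3 wake-promoting lines, R65H02, HC and R60F09, had the same 3 groups and share no library with R21H11. Against both of their own controls, 1583 genes (17.5%) were called in R65H02, 46 (0.523%) in HC and 8 (0.0898%) in R60F09. Of the R21H11 genes, 100 were called in the same direction in R65H02, which is 77.5% of the R21H11 genes and 6.4% of the R65H02 genes tested in both lines. With HC the shared genes numbered 6, or 4.69% of the R21H11 genes and 13% of the HC genes, and with R60F09 there were 0. Of the 129 genes, 28 were called in none of the other lines, 96 in 1 of them, 5 in 2 and 0 in 3.

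The CCT subunits showed how this depends on the control. In R65H02 all 8 were called higher against each control, with log2 changes of 0.25 to 0.68 against GAL4 control 29C, where 26.9% of its tested genes were called higher, and 0.99 to 1.73 against TrpA1 21C (13.5%). In HC, 3 were called against GAL4 control 29C (0.25 to 0.57, with 0.477% of its genes called higher) and 8 against TrpA1 21C (0.52 to 1.27, with 15.8%). In R60F09, 0 were called against GAL4 control 29C (0.07 to 0.21, with 0.146%) and 8 against TrpA1 21C (0.52 to 1.27, with 22.3%). The change in R21H11 minus the mean change of the other 3 lines was tested in a fit of the 36 libraries of all 4 lines, and 0 of the 8 subunits were called for it in both comparisons at once.

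**Figure D5:**
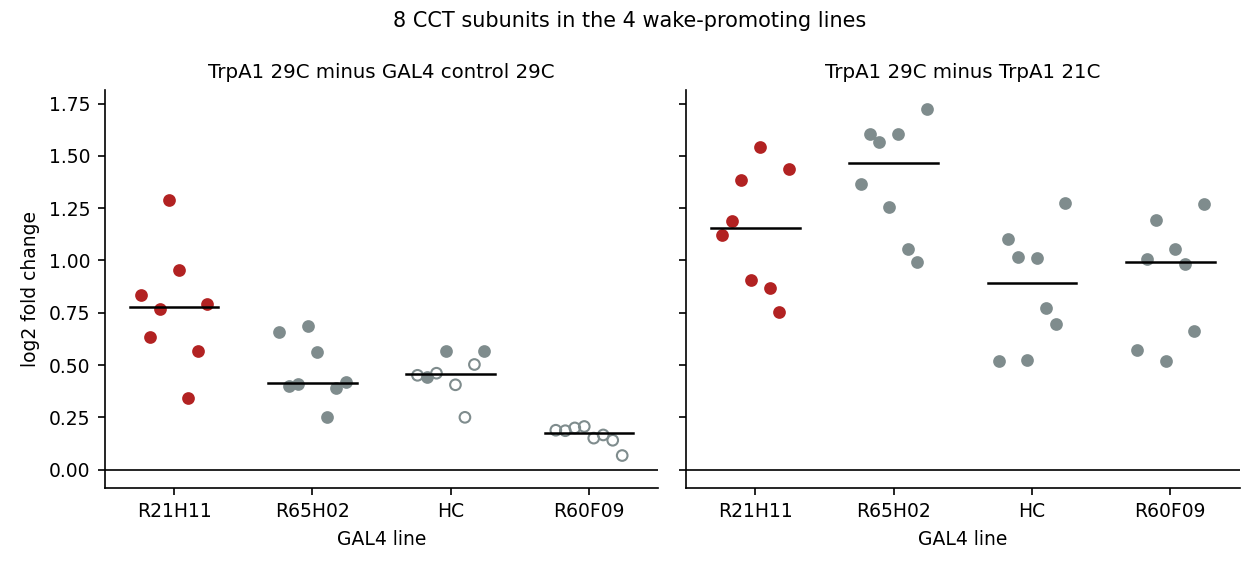
Log2 fold change (y axis) of the 8 CCT subunits is plotted for the 4 wake-promoting lines (x axis), as TrpA1 29C minus GAL4 control 29C on the left and TrpA1 29C minus TrpA1 21C on the right. Filled points passed the test in that line, open points did not, and horizontal lines are medians. R21H11 has the highest median against GAL4 control 29C, 0.78, and R60F09 the lowest, 0.18, while all 32 points on the right are filled.

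Across all genes, 2008 of 9452 tested (21.2%) were called for the difference between R21H11 and the other lines in both comparisons with the same sign. Of the 129 genes, 50 were called with a larger change in R21H11 and 0 with a smaller one. The 129 were chosen for their change in R21H11 in these same libraries, so the direction follows from the choice, and the count is a description. With the length trend removed, 269 genes were called and 6 of the 129: CG31760, dpr4, Drep4, Itp-r83A, Mhcl and Tspo. For Tspo the difference in log2 change was then 0.44 against GAL4 control 29C (adjusted p = 0.0328) and 0.40 against TrpA1 21C (adjusted p = 0.0393). For Mhcl it was -0.46 (adjusted p = 0.00629) and -0.43 (adjusted p = 0.00433), and for Drep4 -0.46 (adjusted p = 0.00629) and -0.49 (adjusted p = 0.00199).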

How the data were processed

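Whole-brain RNA of R21H11 flies was sequenced in 9 libraries of 15 pooled brains each, with a PicoPure RNA kit and a NEBNext Ultra II kit per the labels. Reads were quantified with kallisto 0.46.1, per the submitters' processing notes; the genome build and annotation are not given in the sources used here, so no coordinates are printed. The authors deposited estimated counts per gene, of which 89% of values lie within 0.02 of a whole number, and a second table deposited by the authors holds TPM, abundance corrected for length. All columns matched a labelled library (0 unmapped). RefSeq (Release 6 plus ISO1 MT) served for gene names only: of 13898 listed genes, 12411 carried a current symbol, 1405 matched a synonym and 82 matched neither.

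Counts were rounded, filtered with filterByExpr (8890 of 12857 genes with a count), scaled with TMM and tested with edgeR 4.0.16 (glmQLFit with robust dispersions, R 4.3.3) on the 9 libraries with group as the factor. Benjamini-Hochberg adjustment ran over all genes of a comparison, with a threshold of 0.05. Estimates are log2 changes ± SE. Lines were compared in a fit of 36 libraries of 4 lines. Relative length is the ratio of estimated count to TPM, and the length trend was removed with a lowess offset per library (span 0.3). Further alternatives were DESeq2 1.42.0, RLE scaling, no low-count filter, limma 3.58.1 on log2(TPM + 1) or log2(TPM + 0.1), a 1.5-fold requirement, the replicate number as a block, the fit of 36 libraries, and leaving out each library. The fits were tested on simulated data.

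Named genes were TrpA1 and w, the 12 higher and 12 lower genes with the largest smaller change of both comparisons and a mean of at least 1 log2 CPM, every list member called against both controls, up to 2 members with the smallest adjusted p against TrpA1 21C from a list with no such member, and the 6 genes with the smallest p for the difference between lines. This covers 50 of the 129 genes. Hsp68, Hsp70Bbb, Hsc70-3, per, Hr38 and sr, and SelD, sals and scf, were chosen after their values were seen. The genes, lists and tests were chosen with earlier results of these data known.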

Additional observations from a re-analysis of the deposited data

Results flagged for a closer look

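The change in R21H11 differed from the mean change of R65H02, HC and R60F09 for 50 of the 129 genes called against both controls, by edgeR's test of the difference in the fit of 36 libraries, larger in R21H11 in both comparisons. Over all genes 2008 of 9452 (21.2%) were called for it. The mean joins unlike lines: 100 of the 129 were called in the same direction in R65H02, 6 in HC and 0 in R60F09, and 28 in none of them. The 129 were chosen for their change in the same R21H11 libraries, so the direction follows from the choice and the values are a description. Of the 50, 20 are named above, 6 of them higher and 14 lower. The values that follow are the log2 change against GAL4 control 29C in R21H11 minus the mean of the other 3 lines. Among the higher genes it was 0.95 for Tspo, 0.94 for Ssb-c31a, 0.91 for CG11267, 0.87 for GstD1, 0.64 for CaBP1 and 0.45 for Prosalpha4, with adjusted p of 0.0092 to 0.0327. Among the lower genes it was -0.83 for Itp-r83A, -0.81 for Mhcl, -0.70 for CG13325, -0.68 for mub, -0.66 for CG12769, -0.66 for tim, -0.65 for Nf1, -0.63 for pdm3, -0.63 for CG16791, -0.60 for CG14431, -0.52 for CG5549, -0.50 for dpr4, -0.47 for pan and -0.41 for Drep4, with adjusted p of 0.0092 to 0.0179. Against TrpA1 21C the differences ran from 0.46 to 0.94 for the 6 higher genes (adjusted p = 0.00482 to 0.0339) and from -0.89 to -0.44 for the 14 lower genes (adjusted p = 0.00367 to 0.0298). The comparisons within a line share its TrpA1 29C libraries. With the length trend removed, 6 of the 129 genes remained called for the difference.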

How the results depend on the processing

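Leaving out each library in turn gave 27 to 391 genes called against both controls, 2852 to 4152 against GAL4 control 29C, 79 to 540 against TrpA1 21C and 147 to 3404 between the controls. Calls against both numbered 27 without TrpA1 21C replicate 2 and 345, 275 and 391 without TrpA1 29C replicates 1, 2 and 3. Against GAL4 control 29C the count was 1220 with the length trend removed and 2732 with a 1.5-fold requirement. Against TrpA1 21C it was 914 with DESeq2, 69 with limma on log2(TPM + 1), 821 with the length trend removed and 1996 in the fit of 36 libraries. Against both it was 625 with DESeq2, 17 with limma on log2(TPM + 1), 200 with the length trend removed, 81 with a 1.5-fold requirement and 1486 in the fit of 36 libraries. Between the controls it was 701 with limma and 952 with a 1.5-fold requirement. The count for the difference between lines was 269 with the length trend removed, and the counts for the other lines against both controls were then 848 in R65H02, 255 in HC and 25 in R60F09; these last 4 alternatives were chosen after seeing the data. The cause was not tested.

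The replicate numbers did not pair the libraries: the deviations of same-numbered libraries correlated at -0.388 to 0.325, and 1 of 9 pairs exceeded 0.1. Adding a replicate block to the fit, 30 genes were called against both controls, 83 against TrpA1 21C and 663 between the controls. In HC, 20 genes were then called against both controls. In R21H11, 5 CCT subunits, 4 members of the Hsp90 and Hsp70 partner list and 2 heat shock proteins were then called against both. The block together with the length correction gave 674 against GAL4 control 29C, 486 against TrpA1 21C, 72 against both and 853 between the controls.

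Reversals among the named genes were small. TrpA1 against TrpA1 21C turned to 0.16 with the length trend removed, 0.15 with the block added, 0.11 without TrpA1 21C replicate 2 and 0.14 without TrpA1 29C replicate 2, and over all omissions it ran from -0.25 to 0.14. Against GAL4 control 29C, limma on TPM with either pseudocount turned FKBP59 to -0.063, Hsc70-4 to -0.037, mbf1 to -0.12 and Tcp-1zeta to -0.10, on a scale where the median of all genes moved to -0.32, and CG11267 stood at -0.043 with the length trend removed and -0.046 with the block added.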

Other observations

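Among the 79 genes called against both controls that were not named above, 37 were higher and 42 lower. Those given here were chosen after their values were seen. Several higher genes serve mitochondria or redox balance: Scox, a copper chaperone of cytochrome oxidase assembly (log2 change 0.75 against GAL4 control 29C and 0.63 against TrpA1 21C), CG5010 (current symbol Chchd2; 0.78 and 1.01), DJ-1alpha, a relative of the Parkinson's disease gene DJ-1 (0.47 and 1.13), Idh, an isocitrate dehydrogenase (0.62 and 0.58), and maf-S, the small Maf partner of the oxidative stress factor CncC (1.11 and 0.86). Idh and maf-S kept both calls with the length trend removed. Against GAL4 control 29C that fit called none of Scox (0.15, adjusted p = 0.252), CG5010 (0.15, adjusted p = 0.27) and DJ-1alpha (-0.27, adjusted p = 0.343). DJ-1alpha was also not called there without TrpA1 29C replicate 2 (0.39, adjusted p = 0.119). The lists of nuclear respiratory chain, mitochondrial ribosomal and antioxidant genes had 0 called against both controls in the main fit.

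Among the lower genes, PMCA, which pumps calcium out of the cell, had 526, 361 and 482 CPM in TrpA1 29C, 704, 812 and 727 in GAL4 control 29C and 812, 859 and 741 in TrpA1 21C. No activated library overlapped a control, and the log2 changes were -0.71 against GAL4 control 29C and -0.82 against TrpA1 21C (adjusted p = 0.00476 and 0.0174, edgeR). PMCA kept both calls with the length trend removed. Transcription factor genes that fell included dac (-0.61 and -0.47), bab1 (-0.69 and -0.59), lov (-0.82 and -0.61) and TfAP-2 (-0.59 and -0.67), and lov and TfAP-2 kept both calls with the length trend removed.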
